A study of Homo sapiens with 6 samples.

Results

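Axon guidance genes were followed in IMR32, a human neuroblastoma cell line with an amplified MYCN gene, after 118 µM teriflunomide for 24 h and after 0.1% DMSO for 24 h. Teriflunomide inhibits dihydroorotate dehydrogenase, the mitochondrial enzyme of pyrimidine synthesis. Each group held 3 arrays of total RNA, treatment began 12 h after seeding, and IMR32 is 1 line, so nothing here speaks for other neuroblastomas. The labels call the samples of each group biological replicates, but do not say whether these were separate cultures, passages or days, or whether the teriflunomide wells also held DMSO. The p-values measure the spread between these samples. Members were all probe sets whose only gene symbol named a semaphorin, plexin, neuropilin, ephrin, Eph receptor, Slit, Robo, UNC5 gene, DCC, NTN1 or NTN4. The rule took 171 of 54675 probe sets and 69 of 19775 genes with a symbol of their own. Of these, 66 are guidance ligands (33) or receptors (33). The other 3 matched the rule by name but are not counted as guidance ligands or receptors. They are UNC50, a Golgi protein gene, UNC5CL, an UNC5-like death domain gene, and SLIT2-IT1, an intronic transcript of SLIT2.

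Guidance molecules steer growing axons and migrating neural crest cells by attracting or repelling them. Semaphorins bind plexins, the secreted class 3 semaphorins through neuropilins. Slits bind Robos, netrins bind DCC and UNC5 receptors, and ephrins bind Eph receptor kinases, with A-type and B-type ephrins mostly keeping to the EphA and EphB classes. Many of these receptors also act in the sympathetic lineage from which neuroblastoma arises, where they guide neural crest cells to the dorsal aorta and adrenal gland.

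Values are the authors' GCRMA log2 intensities, on which 1 unit is a doubling. The arrays had a shared lowest value of 2.18 that about 34% of probe sets on each array took (33.9% to 34.3%), and values near it depend on the background model. A probe set was tested when 3 or more of the 6 arrays had it at or above their own median, and the highest of a gene's tested probe sets stood for the gene. This left 54 member genes and 85 member probe sets. The remaining 15 genes were DCC, NTN1, EFNB1, EPHA1, EPHA3, EPHA4, EPHA6, ROBO4, SEMA3B, SEMA3E, SEMA4G, SEMA5B, SEMA6B, SEMA6C and SLIT2-IT1. Of the 171 member probe sets, 41 were at the lowest value on all 6 arrays. Pearson's r between arrays over all probe sets was 0.999 within the teriflunomide group, 0.998 to 0.999 within the DMSO group and 0.989 to 0.990 between them.

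Of the 54 tested guidance genes, 12 were higher and 17 lower with teriflunomide at a limma adjusted p under 0.05, and 25 did not pass. That is 53.7% called, against 58.6% of all 11998 genes tested, so a call by itself did not set these genes apart. The shares over all genes were 29.7% for increases and 28.9% for decreases. For 34 of the 54, every array of one group lay above every array of the other, as it did for 67% of all genes. Changes of at least 2-fold were found for 13 members (24.1%), against 9.77% of all genes. Of these 13, NRP2, EPHA2 and ROBO3 were higher, and UNC5C, EPHA7, ROBO2, SLIT2, PLXNC1, SEMA6A, EFNA5, EPHA5, EPHB1 and SEMA5A were lower. For UNC5C and SEMA5A another probe set rose, as given with each gene. The shares over all genes were 5.24% for 2-fold increases and 4.53% for 2-fold decreases. The count of 3 higher genes became 1 without teriflunomide replicate 1, where EPHA2 stood at 0.97 and ROBO3 at 0.97 on the log2 scale, just under the 2-fold mark. The averages of each gene's probe sets gave 3 members higher and 7 lower at least 2-fold. A share over all genes was not computed for that rule. The median log2 fold change was -0.03 over the tested members and 0.00 over all genes, while the median size of change was 0.42 and 0.29. By role, 7 ligands were higher and 7 lower of 25 tested, and 5 receptors were higher and 10 lower of 27 tested. Where both group means lay above log2 5, 22 of 35 members passed (62.9%), against 63.2% of all such genes. Of these 35, 8 changed at least 2-fold (22.9%), against 8.54% of such genes. UNC5C and SEMA5A, whose probe sets moved oppositely, are among the 8. In these bulk RNA samples, fewer cells of a type and less RNA per cell cannot be told apart.

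**Figure D1:**
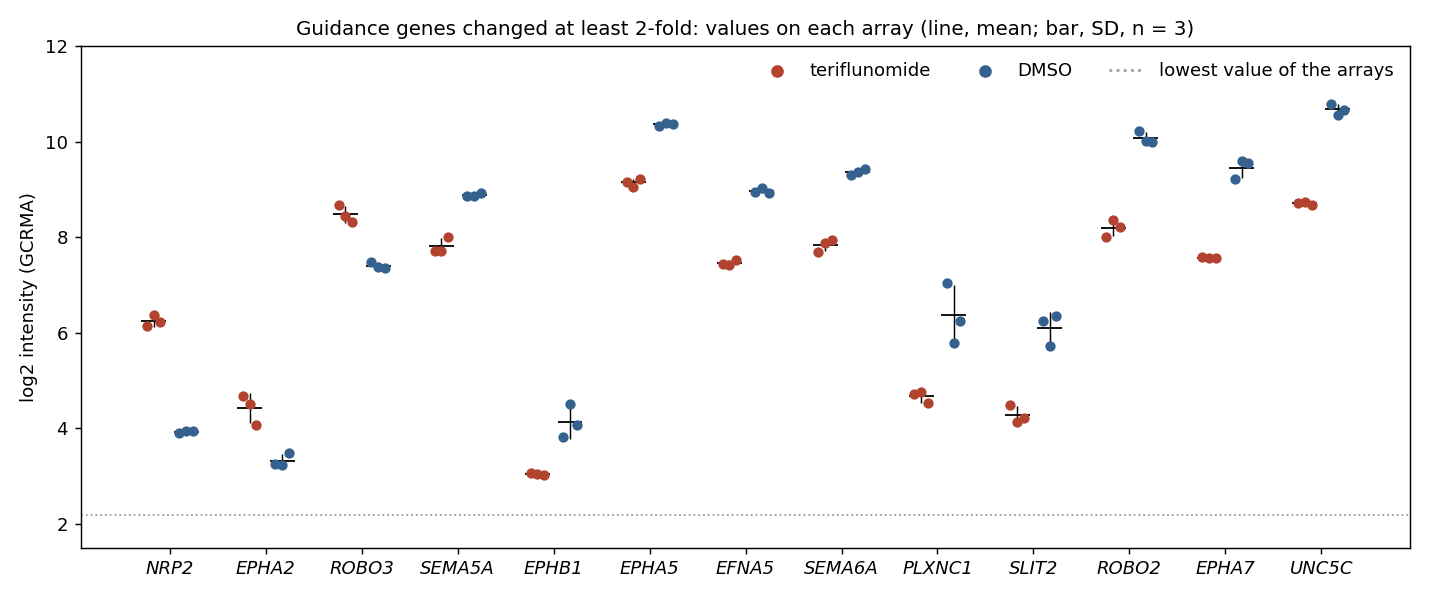
Log2 intensity on each array for the 13 guidance genes changed at least 2-fold, teriflunomide left and DMSO right within each gene, with the mean (line) and SD (bar, n = 3). The groups did not overlap for any of the 13. EPHA2 and EPHB1 stayed under log2 5 on all 6 arrays.

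The upstream sequences of 3 genes are shown as examples. They are NRP2, the largest increase with 1 probe set per gene, and the ligand genes SLIT2 and EFNA5, which fell. Each changed at least 2-fold under every alternative that gave a value. So did ROBO2, EPHA7, EPHA5 and SEMA6A, which are not shown, so the 3 do not stand for all such genes. Each run is the 250 bases before the RefSeq start, 5′ to 3′ on the gene's strand in GRCh38.p14: chr2:205682251-205682500 (plus strand) for NRP2, chr4:20251655-20251904 (plus strand) for SLIT2 and chr5:107670938-107671187 (minus strand) for EFNA5. Capitals mark matches to TGACNNNGC on either strand, the core of the antioxidant response element.
NRP2: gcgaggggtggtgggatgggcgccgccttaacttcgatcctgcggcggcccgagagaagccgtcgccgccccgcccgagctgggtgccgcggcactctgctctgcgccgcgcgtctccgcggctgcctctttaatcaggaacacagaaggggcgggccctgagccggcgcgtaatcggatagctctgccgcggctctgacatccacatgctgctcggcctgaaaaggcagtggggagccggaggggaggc
SLIT2: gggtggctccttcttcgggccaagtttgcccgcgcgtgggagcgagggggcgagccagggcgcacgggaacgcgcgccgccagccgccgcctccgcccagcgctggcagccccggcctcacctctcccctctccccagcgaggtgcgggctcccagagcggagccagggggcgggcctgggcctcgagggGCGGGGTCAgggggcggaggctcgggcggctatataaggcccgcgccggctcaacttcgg
EFNA5: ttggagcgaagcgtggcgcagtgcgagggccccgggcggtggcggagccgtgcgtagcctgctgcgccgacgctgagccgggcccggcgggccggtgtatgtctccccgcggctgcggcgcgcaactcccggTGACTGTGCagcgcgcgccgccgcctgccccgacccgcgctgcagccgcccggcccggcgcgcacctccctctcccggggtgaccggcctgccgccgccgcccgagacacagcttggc
All 3 are rich in G and C, at 70.0% for NRP2, 77.2% for SLIT2 and 79.6% for EFNA5, against a median of 58% over all genes, 1 upstream window each. The match lies 60 bases before the start in SLIT2 and 118 bases before it in EFNA5. RefSeq windows of 300 bases, of which 50 follow the start, were at hand for 59 of the 69 members, 90 windows in all, and a gene counted as holding a motif if any of its windows did. Of all genes with a window, 16.1% held this motif on either strand, against 18.6% of the members. Of members with a window, 1 of 9 that were higher held it (SEMA6D), as did 5 of 16 that were lower (EFNA4, EFNA5, EFNB2, EPHA7 and SLIT2) and 4 of 22 that did not pass. Of 12 members with a window that changed at least 2-fold, 3 held it: EFNA5, EPHA7 and SLIT2. Both printed genes that fell are thus among these 3. The E-box CACGTG, which MYC proteins bind, was in the windows of 2 of 9 higher members, 1 of 16 lower members and 8.77% of all genes. TGATGNAA, the core of the C/EBP-ATF element, was in those of 1 of 9, 0 of 16 and 4.46%. The motifs were searched separately, and these matches describe letters in a window, not binding.

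In the Slit and Robo families, SLIT2, ROBO1 and ROBO2 fell and ROBO3 rose. SLIT2, a secreted repellent, had 4.49, 4.12 and 4.21 with teriflunomide, against 6.25, 5.73 and 6.35 in DMSO. Its log2 fold change was -1.83 (SE 0.19, adjusted p = 0.000697), and a second tested probe set changed by -1.89. Every teriflunomide array lay below every DMSO array, and because the teriflunomide mean was under log2 5, a floor of log2 5 on all values reduced the change to -1.11. ROBO2, a Slit receptor, had 8.01, 8.35 and 8.22 with teriflunomide and 10.21, 10.01 and 9.998 in DMSO. It fell by 1.88 on the log2 scale (SE 0.11, adjusted p = 0.000102), a 3.69-fold difference. Its other tested probe sets changed by -2.74 and -1.73, so all 3 fell. ROBO1, the other main Slit receptor, had 11.48, 11.62 and 11.57 with teriflunomide, against 12.14, 12.26 and 12.16 in DMSO, a smaller decrease of -0.63 (SE 0.06). ROBO3, a divergent Robo that controls midline crossing and binds Slits poorly in mammals, moved the other way. It had 8.67, 8.44 and 8.31 with teriflunomide and 7.48, 7.38 and 7.35 in DMSO, a change of 1.07 (SE 0.10, adjusted p = 0.000436). SLIT3, a ligand of the same family, averaged 8.53 ± 0.12 with teriflunomide and 8.36 ± 0.09 in DMSO (SD, n = 3 each) and did not pass (0.17, adjusted p = 0.112). SLIT1 lay near log2 3.28 on all 6 arrays, and ROBO4, the endothelial Robo, was not tested. Of the 6 genes tested in these families, 3 were lower, 1 was higher and 2 did not pass, among them the dim SLIT1. Over all genes 58.6% passed, so these counts do not set the families apart.

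In the ephrin and Eph system, the A class fell more often than it rose. Of 10 tested A-type ephrins and EphA receptors, 6 were lower and 1 higher, with a median log2 fold change of -0.33. That is 70% called, against 58.6% of all genes, and 28.9% of all genes were lower. Among the 6, the EFNA2 and EPHA8 decreases were marginal, as given below. EFNA5, a membrane-anchored repellent of topographic maps, had 7.43, 7.42 and 7.53 with teriflunomide, against 8.95, 9.02 and 8.93 in DMSO. The change was -1.51 (SE 0.05, adjusted p = 2.6e-05), and its other tested probe sets changed by -2.15 and -2.43. All 3 EFNA5 probe sets thus separated the groups. EPHA7, a receptor of A-type ephrins, had 7.58, 7.55 and 7.55 with teriflunomide and 9.21, 9.59 and 9.54 in DMSO (-1.89, SE 0.11). A second EPHA7 probe set changed by -2.11, and the remaining one, near log2 5, by -0.35 without passing (adjusted p = 0.0839). EPHA5, a neuronal receptor of the same ligands, had 9.15, 9.06 and 9.22 with teriflunomide and 10.33, 10.39 and 10.36 in DMSO (-1.22, SE 0.05), and its other tested probe set changed by -1.50. The ligand gene EFNA5 and the receptor genes EPHA5 and EPHA7 were thus lower together on every teriflunomide array.

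Smaller decreases were called for EFNA4, at 6.79 ± 0.04 with teriflunomide and 7.47 ± 0.13 in DMSO (SD, n = 3 each, change -0.68), and for EPHA8 (-0.46, adjusted p = 0.0448) and EFNA2 (-0.19, adjusted p = 0.0485). The EFNA2 call was lost whichever array was left out (adjusted p 0.0536 to 0.125), and the EPHA8 call was lost when any of 4 arrays was left out, each of the teriflunomide arrays or DMSO replicate 3 (adjusted p up to 0.117). EPHA2, a receptor of EFNA1 often raised in carcinomas, had 4.67, 4.51 and 4.07 with teriflunomide, against 3.25, 3.23 and 3.48 in DMSO. Its change of 1.10 (SE 0.17, adjusted p = 0.003) was 0 with values under log2 5 raised to 5, since all arrays were dim. EFNA1 itself had a log2 fold change of -0.10 (adjusted p = 0.185), EFNA3 of -0.03 and EPHA10 of -0.13, none past the threshold. EFNA3 and EPHA10 were under log2 5 on every array, so their missing calls say little.

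The B class had smaller or dimmer changes. EFNB2, a transmembrane ephrin of arterial and neural crest boundaries, had 5.64, 6.25 and 5.59 with teriflunomide and 6.94, 6.40 and 6.83 in DMSO. The groups did not overlap, though teriflunomide replicate 2 lay close to DMSO replicate 2, and the change of -0.90 (SE 0.23, adjusted p = 0.0199) lost its call without teriflunomide replicate 1 or 3 or DMSO replicate 1 or 3 (adjusted p up to 0.0681), and with no filter on dim probe sets (adjusted p = 0.0672). EPHB1 stood at 3.05, 3.05 and 3.03 with teriflunomide, against 3.81, 4.52 and 4.06 in DMSO, a change of -1.08 that was 0 with values under log2 5 raised to 5. EPHB3, a kinase receptor of B-type ephrins, averaged 7.21 ± 0.04 with teriflunomide and 7.497 ± 0.12 in DMSO (SD, n = 3 each). That change of -0.28 (adjusted p = 0.0152) just missed the threshold without teriflunomide replicate 3 (adjusted p = 0.0512). EFNB3 (0.09), EPHB4 (0.01) and EPHB6 (0.10) did not pass, the last 2 with every array under log2 5.

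**Figure D2:**
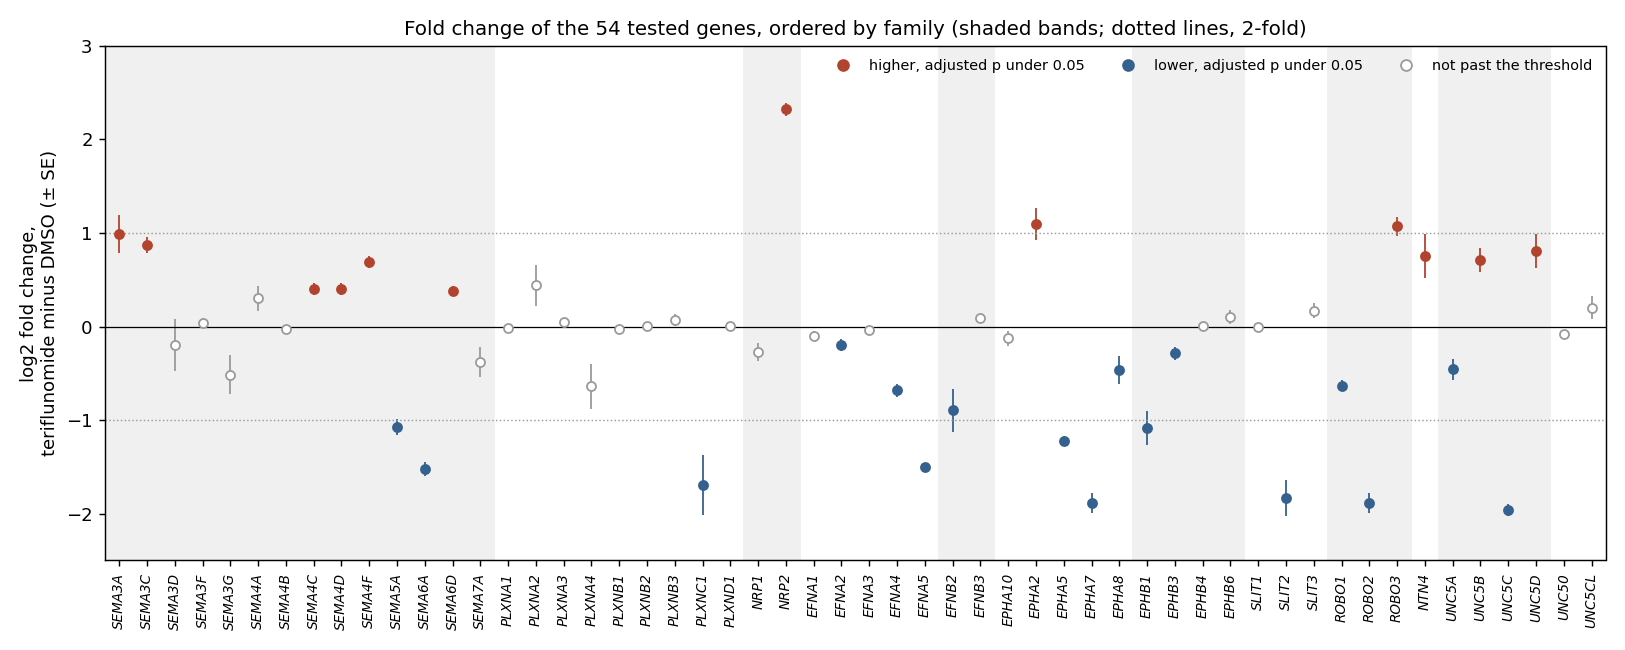
Log2 fold change (teriflunomide minus DMSO) with its limma SE for the 54 tested genes, 1 probe set per gene, ordered by family along the x axis. NRP2 stands highest at 2.32 and UNC5C lowest at -1.96, while 8 of the 9 plexins lie at open circles, not past the threshold.

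Of 14 semaphorins tested, 6 were higher and 2 lower, with a median log2 fold change of 0.17. That is 57.1% called, near the 58.6% of all genes, so a call did not set the family apart. Among the secreted class 3, SEMA3A, the prototype repellent, had 6.84, 6.90 and 6.26 with teriflunomide and 5.44, 5.83 and 5.75 in DMSO. The change was 0.99 (SE 0.20, adjusted p = 0.00887), a 1.99-fold difference, while its other tested probe set, near log2 5, stood at 0.19 (adjusted p = 0.344). SEMA3C, a class 3 ligand of neural crest migration, had 4.05, 4.14 and 4.01 with teriflunomide, against 3.28, 3.27 and 3.02 in DMSO (0.87, SE 0.08), with every array under log2 5. SEMA3F, a ligand of neuropilin 2, had 11.03 ± 0.04 with teriflunomide and 10.99 ± 0.09 in DMSO (SD, n = 3 each) and did not pass (0.04, adjusted p = 0.585). SEMA3D (-0.19) and SEMA3G (-0.51) did not pass either, SEMA3G with every array under log2 5.

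Of the membrane-bound class 4 semaphorins, 3 of 5 tested were higher, and none was lower. Over all genes 29.7% were higher, and 5 genes are too few to set against that share. SEMA4F, a transmembrane member of neurons and glia, averaged 8.81 ± 0.09 with teriflunomide and 8.12 ± 0.08 in DMSO (SD, n = 3 each, change 0.69), and its second tested probe set changed by 0.67. SEMA4C, a ligand of plexin B2, had 12.04, 11.93 and 12.08 with teriflunomide, against 11.70, 11.54 and 11.60 in DMSO (0.40, SE 0.06), and a second tested probe set changed by 0.41. SEMA4D, the ligand of plexin B1, changed by 0.40 (SE 0.06, adjusted p = 0.00338). All 3 separated the groups without overlap, and SEMA4A (0.30) and SEMA4B (-0.03) did not pass. SEMA4A was under log2 5 on every array, and SEMA4B had the same value, 6.847, on teriflunomide replicate 3 and all DMSO arrays. Of class 6, SEMA6A was lower and SEMA6D higher. SEMA6A, a transmembrane ligand of plexins A2 and A4, had 7.69, 7.88 and 7.93 with teriflunomide and 9.30, 9.37 and 9.41 in DMSO. It fell by 1.53 on the log2 scale (SE 0.07, adjusted p = 6.39e-05), and its other tested probe sets changed by -1.92 and -1.97. SEMA6D, which binds plexin A1, was higher at 7.98 ± 0.09 with teriflunomide and 7.60 ± 0.04 in DMSO (SD, n = 3 each, change 0.38). SEMA7A, the lipid-anchored semaphorin that binds plexin C1, stood at -0.38 (adjusted p = 0.0903).

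On the receptor side of the semaphorins, NRP2 rose, NRP1 had no settled direction, and 8 of 9 plexins did not pass on the probe set that stood for the gene. NRP2, the coreceptor of SEMA3F and SEMA3C, had 6.14, 6.37 and 6.22 with teriflunomide, against 3.89, 3.94 and 3.94 in DMSO. The log2 fold change was 2.32 (SE 0.07, adjusted p = 2.47e-05), a 5.001-fold difference and the largest increase among the probe sets that stood for a member gene. Since the DMSO values were under log2 5, a floor at that level reduced the change to 1.25. Its other tested probe sets were dim throughout, and changed by 0.38 (adjusted p = 0.0394) and 0.72 (adjusted p = 0.0528). NRP2 had 11 probe sets, of which 3 were tested, and the untested ones averaged 2.18 to 2.29 in both groups. The change of at least 2-fold thus rests on 1 of 11 probe sets. NRP1, the coreceptor of SEMA3A, had probe sets that disagreed. The one that stood for the gene had 8.38, 8.73 and 8.59 with teriflunomide and 8.92, 8.77 and 8.81 in DMSO (-0.27, adjusted p = 0.0589), and the other had 6.90, 7.04 and 6.84 with teriflunomide, against 5.87, 5.87 and 6.13 in DMSO (0.97, adjusted p = 0.000909). Averaged, NRP1 passed at 0.35, so its direction was not settled by these probe sets.

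Of 9 tested plexins, the signalling receptors of the semaphorins, 1 was lower and none higher, which is 11.1% called, against 58.6% of all genes. PLXNC1, the receptor of SEMA7A, had 4.72, 4.75 and 4.52 with teriflunomide and 7.04, 5.79 and 6.25 in DMSO. The groups did not overlap, the DMSO arrays were spread widely, and the change was -1.70 (SE 0.32, adjusted p = 0.0064). A second PLXNC1 probe set, under log2 5 on all arrays, stood at 0.00 (adjusted p = 0.999). PLXNA1 had 11.94, 12.005 and 11.98 with teriflunomide and 12.06, 11.96 and 11.94 in DMSO (-0.02, SE 0.04, adjusted p = 0.79), which were overlapping values. PLXND1, the receptor of SEMA3E, stood at 0.01 (SE 0.04), while its second tested probe set was called higher at 0.24 (adjusted p = 0.0458). PLXNA2, a receptor of SEMA6A, stood at 0.44 without passing (adjusted p = 0.143), while a dimmer probe set was called lower at -0.55 (adjusted p = 0.0496). The value of PLXNB2 was 9.51 on all 6 arrays, within 0.0037 log2 units, a spread smaller than the median SD between arrays of the tested members, 0.080 with teriflunomide and 0.092 in DMSO. The other PLXNB2 probe set was at the lowest value on all 6 arrays and was not tested. The remaining plexins, PLXNA3, PLXNA4, PLXNB1 and PLXNB3, had means under log2 5 in both groups and did not pass. The missing calls of PLXNB2 and of these dim plexins say little.

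Netrin receptors of the UNC5 family mediate repulsion and trigger cell death when no ligand is bound. All 4 tested passed on the probe set that stood for the gene, 2 higher and 2 lower. Over all genes 58.6% passed, and 4 genes are too few to set against that share. UNC5B, a known p53 target, had 13.25, 13.31 and 13.29 with teriflunomide and 12.87, 12.49 and 12.37 in DMSO. It changed by 0.71 (SE 0.13, adjusted p = 0.006), and its other tested probe sets changed by 0.74 and 1.05, so all 3 rose. UNC5A was lower, with 8.70, 8.79 and 8.41 with teriflunomide and 8.96, 9.16 and 9.15 in DMSO (-0.46, adjusted p = 0.0179), a call lost without DMSO replicate 2 or 3 (adjusted p up to 0.0621). UNC5D had 3.62, 3.63 and 3.99 with teriflunomide, against 3.08, 3.13 and 2.60 in DMSO, a change of 0.81 (SE 0.18, adjusted p = 0.0118). All these values were under log2 5, so a floor at that level left no change and no call. UNC5C gave opposite calls. The probe set that stood for the gene had 8.71, 8.74 and 8.67 with teriflunomide and 10.79, 10.55 and 10.67 in DMSO (-1.96, SE 0.07, adjusted p = 3.09e-05). The other had 8.90, 8.55 and 8.87 with teriflunomide, against 7.66, 7.43 and 7.81 in DMSO (1.14, SE 0.14, adjusted p = 0.00183). Both sets separated the groups and lay well above the lowest value. Of the netrins, NTN1 was at or near the lowest value on every array, as was the partner receptor DCC. NTN4, a netrin of basement membranes, had 7.34, 6.61 and 6.75 with teriflunomide and 6.35, 5.84 and 6.25 in DMSO. Its change of 0.75 (SE 0.24, adjusted p = 0.0379) lost its call when any array but teriflunomide replicate 2 was left out (adjusted p up to 0.102).

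Of the 24 members with at least 2 tested probe sets, 8 had all of them called one way, 8 had some called, all in 1 direction, 6 had none called and 2 had opposite calls. Among the 8 with some called, NRP1 and PLXNA2 had an uncalled probe set of opposite sign. Over single probe sets, 21 were higher and 25 lower of 85, against 48.8% called of all 27290 tested. The 2 genes with opposite calls were UNC5C and SEMA5A, a transmembrane semaphorin with thrombospondin repeats. For SEMA5A the probe set that stood for the gene had 7.71, 7.71 and 7.999 with teriflunomide and 8.86, 8.85 and 8.92 in DMSO (-1.07, SE 0.09). Another had 9.16, 9.37 and 9.45 with teriflunomide, against 6.65, 6.85 and 6.88 in DMSO, a change of 2.54 (SE 0.10, adjusted p = 7.51e-05). The remaining one stood at 0.07 (adjusted p = 0.372). Averaged, SEMA5A rose by 0.51, opposite in sign to the probe set that stood for it. A change in total SEMA5A or UNC5C transcript therefore has no single direction here, and which transcripts each probe set reads was not analysed here.

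**Figure D3:**
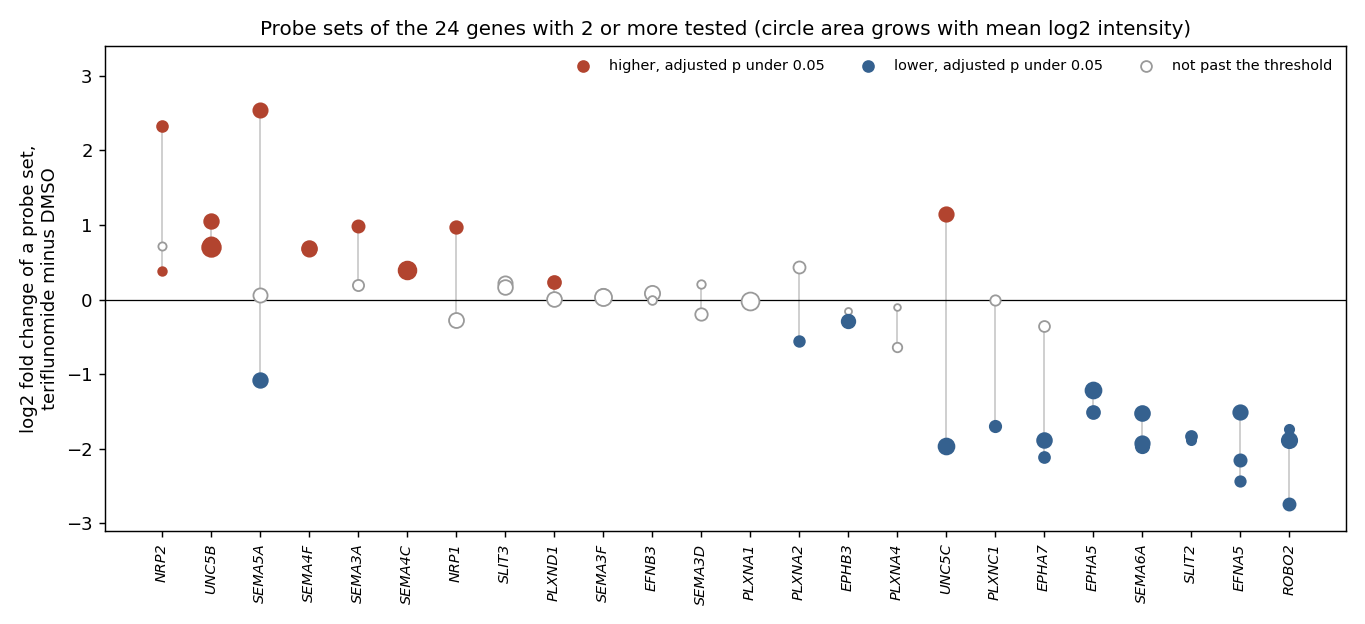
Log2 fold change (teriflunomide minus DMSO) of each tested probe set of the 24 guidance genes with at least 2, genes along the x axis and circle area growing with mean log2 intensity. ROBO2, EFNA5, SEMA6A, EPHA5 and SLIT2 have all their circles below 0, while SEMA5A spans -1.07 to 2.54 and UNC5C spans -1.96 to 1.14.

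Genes that act with these ligands and receptors were read from 5 lists, of which 95 of 115 genes were tested, 18 higher and 40 lower, with a median log2 fold change of -0.16. That is 61.1% called, near the 58.6% of all genes. Over all genes, 29.7% were higher and 28.9% lower. Of 23 semaphorin and plexin signalling genes, 6 were higher and 10 lower (69.6% called). RND3 (2.19, SE 0.23) and RRAS (1.75, SE 0.15), small GTPases of the plexin pathway, rose most, and CDK5, the kinase that phosphorylates collapsin response mediator proteins downstream of SEMA3A, fell by 1.43 (SE 0.08). Of 22 ephrin and Eph signalling genes, 3 were higher and 12 lower (68.2% called). ANKS1A and ANKS1B, adaptors of Eph receptors, changed by -1.52 and -1.80, the second among dim values that gave 0 with those under log2 5 raised to 5. KALRN, a guanine exchange factor of EphB signalling, changed by 1.07, or 0.10 with the raised floor. Of 16 Slit and Robo signalling genes, 2 were higher (VASP at 0.60) and 4 lower (GPC1, a Slit-binding glypican, at -0.49, and CDC42 at -0.16), which is 37.5% called, against 58.6% of all genes. No gene of that list reached a 2-fold change, against 9.77% of all genes, and 16 genes are too few to set against that share.

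Among 8 other netrin, RGM and DCC-type genes, RGMB, a ligand of neogenin and BMP coreceptor, had a log2 fold change of 2.68 (SE 0.08). It averaged 8.51 ± 0.11 with teriflunomide and 5.83 ± 0.09 in DMSO (SD, n = 3 each). NTNG1 (-0.88) and RGMA (-0.38) were lower in that list, which had 2 genes higher and 3 lower (62.5% called, against 58.6% of all genes). Of 26 genes of myelin inhibitors, morphogen receptors and guidance-linked adhesion, 5 were higher and 11 lower, 5 of the lower ones at least 2-fold. That is 61.5% called, against 58.6% of all genes. Over all genes, 4.53% were lower at least 2-fold. CNTN4, a contactin of axon targeting, changed by -1.80 (SE 0.14), CXCR4, the chemokine receptor that guides neural crest cells, by -1.61 (SE 0.11), and VEGFA, a ligand of neuropilins, by 1.05 (SE 0.10).

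**Figure D4:**
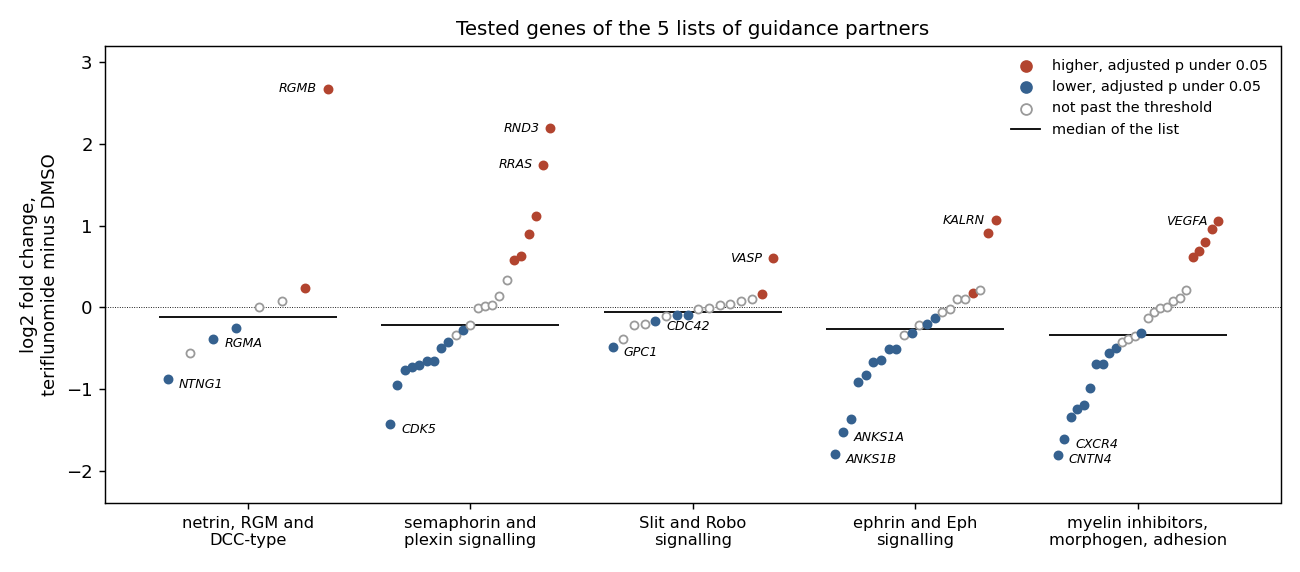
Log2 fold change (teriflunomide minus DMSO) of each tested gene in the 5 lists of guidance partners, sorted within a list, with the list's median as a line. The medians lie between -0.34 and -0.06, and RGMB at 2.68 and RND3 at 2.19 stand highest.

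Cell identity was read from markers. Of 16 adrenergic neuroblastoma markers, 14 had a probe set and 12 were tested, with PHOX2A, a transcription factor of the lineage, at 12.69 with teriflunomide and 11.93 in DMSO. The largest changes of the list were decreases of DDC (-1.82), CHGA (-1.46) and HAND1 (-1.06). MYCN averaged 14.69 with teriflunomide and 15.11 in DMSO. TH and STMN2, which mark sympathetic neurons, were at or near the lowest value. The summed log2 values of the list ran from 117.12 to 117.33 with teriflunomide and from 120.48 to 122.54 in DMSO. Of the 12 tested markers, 3 were higher and 4 lower. That is 58.3% called, against 58.6% of all genes, so these counts do not set the list apart. All markers of blood (6), endothelium (6) and Schwann or glial cells (5) that had a probe set averaged under log2 5 in both groups. Of 6 epithelial markers, 5 averaged under log2 5, and MUC1 was lower (-0.64). Of 8 fibroblast and mesenchymal markers, 6 were tested, and 3 were higher and 1 lower. That is 66.7% called, and 6 genes are too few to set against the share of all genes. The summed values of that list ran from 63.4 to 64.3 with teriflunomide and 61.7 to 61.8 in DMSO. COL1A1 averaged 11.75 with teriflunomide and 10.81 in DMSO, while COL1A2 and DCN were at 2.18 in both. Among the array's control probe sets, ACTB had a 3′ signal above its 5′ signal, which tracks how intact the labelled RNA is, by 1.62 ± 0.07 with teriflunomide and 1.36 ± 0.03 in DMSO (log2, SD, n = 3 each, exact permutation p = 0.1, and 3 against 3 can give no smaller one). The same difference for GAPDH was 0.063 ± 0.021 with teriflunomide and 0.049 ± 0.006 in DMSO (log2, SD, n = 3 each, exact permutation p = 0.4). The part of these marker and control differences in the guidance results was not tested.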

How the data were processed

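Total RNA of 3 teriflunomide and 3 DMSO samples was read on human 3′ expression arrays. The deposited values are log2 intensities. The submitters' processing notes name GCRMA, a background correction and normalization that the authors ran before deposit. No scanner files were used here, so background correction could not be varied. In the platform annotation 41091 probe sets had 1 symbol, 1801 several and 11783 none, and only the first kind was named. limma 3.58.1 in R 4.3.3 (lmFit and eBayes) was fitted across 27290 probe sets and across 11998 genes, with Benjamini-Hochberg adjustment over each and a threshold of 0.05. Tested probe sets were at or above the array's median on 3 or more of 6 arrays, and the one with the highest mean stood for a gene. The members named singly are all tested guidance ligands and receptors. UNC50 (-0.08) and UNC5CL (0.20) were also tested and did not pass. Of each partner list, the 2 with the largest changes past the threshold were named, and the next largest in the direction opposite to the first. Members, lists and tests were chosen with earlier results of these data known. The pipeline was tested on simulated data. Alternatives were other filters, scalings, moderation, probe set rules, a raised floor, a replicate block and leaving out each array. The number of arrays limits the precision.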

Additional observations from a re-analysis of the deposited data

How the results depend on the processing

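With the filter at the 75th percentile, which left 23 members tested, 4 guidance genes were higher and 11 lower. With that filter, 10 probe sets were higher and 13 lower, and 1 gene was higher and 7 lower at least 2-fold. Leaving out 1 array at a time gave 11 to 12 genes higher and 13 to 17 lower, 18 to 20 probe sets higher and 21 to 26 lower, and 1 to 4 genes higher and 10 to 11 lower at least 2-fold. The count of 1 came without teriflunomide replicate 1. Of the 29 called genes, 23 kept the call in each of these fits, and EFNA2, EFNB2, NTN4, EPHA8, UNC5A and EPHB3 lost it in at least 1. Of the 25 members without a call, 7 gained one when an array was left out. They were EFNA1, EFNB3, SEMA3G, NRP1, PLXNA2, PLXNA4 and UNC50. With each gene's probe sets averaged, NRP1 turned to 0.35 (limma adjusted p = 0.0112) and SEMA5A to 0.51 (limma adjusted p = 0.00219), because their probe sets disagree. With no filter on dim probe sets, NTN4, EFNA2, EFNB2, EPHA8 and UNC5A lost the call. With values under log2 5 raised to 5, 8 genes were higher and 14 lower, and NTN4, SEMA3C, EPHA2, UNC5D, EFNA2, EPHA8 and EPHB1 lost the call. The labels do not say whether the replicate numbers pair the arrays. Same-numbered arrays deviated together with r of 0.087, 0.13 and -0.039, and arrays of unlike number with r of -0.164 to 0.091. Such small values cannot settle a pairing. The replicate block gave 12 genes higher and 16 lower, and 20 probe sets higher and 23 lower. In that fit UNC5D (limma adjusted p = 0.0501) and EFNB2 (limma adjusted p = 0.0702) lost the call and SLIT3 (limma adjusted p = 0.0247) gained one. An alternative chosen after seeing the data left out probe sets that repeat their lowest value on at least 3 arrays, and gave 12 genes higher and 19 lower. Values near the lowest value limit what can be said of the 16 tested members with both means under log2 5.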

Other observations

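Genes whose names resemble the members but which the rule left out were also measured. SLITRK5, a synaptic adhesion gene, had 7.16, 7.08 and 7.16 with teriflunomide, against 7.67, 8.27 and 8.12 in DMSO (log2 fold change -0.88, limma adjusted p = 0.00733). SLITRK6, of the same family, was lower on all 3 of its probe sets, at -0.31, -0.32 and -0.41. Of the same family, SLITRK4 was lower (-0.71, limma adjusted p = 0.0229) and SLITRK2 higher (0.69, limma adjusted p = 0.0379), both among values under log2 5. EPHA5-AS1, antisense to EPHA5, had 3.22, 3.73 and 3.34 with teriflunomide and 2.18, 2.28 and 2.18 in DMSO, values near the lowest on the arrays.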
